A study of Homo sapiens with 12 samples.

Results

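Glycyrrhizin and ursodeoxycholic acid, the polycyclic terpenoid and steroid agents of the series, were read on 6 arrays and set against the 6 arrays of mock-treated cells and cells given silymarin, of 12 arrays in all. The cells were labelled HepG2, an established line from a human hepatocellular carcinoma. Each agent was given at 25 µM, the mock cells are labelled Ctrl with no agent named, and every group had 3 arrays. All groups grew in DMEM with fetal bovine serum. The labels used here give neither the time of exposure nor the solvent. They also do not tie the arrays to separate cultures, so the p-values measure array-to-array spread that may be technical. The sides were chosen by the chemical class of the agents with earlier results of these arrays known, and the genes described below were selected on the same values that set the sides apart. A gene is said here to separate the sides when the 6 arrays of glycyrrhizin and ursodeoxycholic acid all lay above, or all below, the 6 arrays of mock and silymarin.

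Glycyrrhizin is a saponin of liquorice root: a pentacyclic triterpenoid linked to glucuronic acids. Its aglycone inhibits the enzyme that inactivates cortisol, and glycyrrhizin itself binds the nuclear protein HMGB1. Ursodeoxycholic acid is a hydrophilic bile acid, a steroid with a carboxylic acid side chain, used to treat cholestatic liver disease. Bile acids are made from cholesterol in hepatocytes, sensed by nuclear and membrane receptors and moved by dedicated transporters. Silymarin, on the other side, is a mixture of flavonolignans from milk thistle, which are polyphenols rather than terpenoids. Several flavonoids are known ligands of the aryl hydrocarbon receptor (AhR), which controls the CYP1 family of cytochromes P450.

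Of 13881 genes, 132 separated the sides (0.951%). With glycyrrhizin and ursodeoxycholic acid 43 were higher (0.31%) and 89 were lower (0.641%). The limma fit placed 4 genes (0.0288%) past an adjusted threshold of 0.05 on this contrast, each of them lower: MIEN1, CLCN2, CYP1A2 and HIPK3. That count was 13 without glycyrrhizin 2, 4 without glycyrrhizin 1, 3 without mock 1 and 2 without any other single array, each array being named by its agent and number. MIEN1 and CLCN2 passed without each array in turn, CYP1A2 only without glycyrrhizin 1 or 2, and HIPK3 only without glycyrrhizin 1, glycyrrhizin 2 or mock 1. Because the contrast defined the genes, these counts and the differences below are a description, and nothing is read from them as a test. Glycyrrhizin against ursodeoxycholic acid, and silymarin against mock, are not the contrast that set the sides apart. A gene separates more easily when the 2 groups of a side lie close together. For the separating genes the values of these comparisons are therefore not free of the selection either. Each agent against silymarin crosses the split, so its values for a separating gene such as MIEN1 are no independent test.

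Promoter sequences of the 4 genes are printed because their arrays were the ones past the threshold. Each is the RefSeq window of 300 bases around the start of the gene (GRCh38.p14), 5′ to 3′ on the gene's strand. They were searched on both strands for GCGTG (the core bound by AhR), CACGTG (an E-box), AGGTCA (the hexamer bound by many nuclear receptors) and TATAAA (the TATA box), and matches stand in capitals. MIEN1 lies on the minus strand (chr17:39730483-39730782), CLCN2 on the minus strand (chr3:184361556-184361855), CYP1A2 on the plus strand (chr15:74748595-74748894) and HIPK3 on the plus strand (chr11:33256422-33256721).
MIEN1: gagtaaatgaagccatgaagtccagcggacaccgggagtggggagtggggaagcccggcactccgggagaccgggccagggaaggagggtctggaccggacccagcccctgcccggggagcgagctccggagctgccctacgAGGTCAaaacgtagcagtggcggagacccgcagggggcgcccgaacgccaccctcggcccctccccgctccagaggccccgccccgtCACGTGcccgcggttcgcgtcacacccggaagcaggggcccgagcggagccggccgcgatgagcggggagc
CLCN2: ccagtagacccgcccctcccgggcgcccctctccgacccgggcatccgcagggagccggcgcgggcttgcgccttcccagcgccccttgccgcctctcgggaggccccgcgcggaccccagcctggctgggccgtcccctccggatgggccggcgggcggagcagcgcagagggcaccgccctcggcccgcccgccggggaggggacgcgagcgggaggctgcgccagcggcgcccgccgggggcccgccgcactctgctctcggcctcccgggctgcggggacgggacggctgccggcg
CYP1A2: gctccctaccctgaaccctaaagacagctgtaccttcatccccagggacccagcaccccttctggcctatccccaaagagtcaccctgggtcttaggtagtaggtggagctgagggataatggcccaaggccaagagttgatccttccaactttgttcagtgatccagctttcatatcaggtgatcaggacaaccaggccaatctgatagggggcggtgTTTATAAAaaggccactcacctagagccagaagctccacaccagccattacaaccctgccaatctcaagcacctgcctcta
HIPK3: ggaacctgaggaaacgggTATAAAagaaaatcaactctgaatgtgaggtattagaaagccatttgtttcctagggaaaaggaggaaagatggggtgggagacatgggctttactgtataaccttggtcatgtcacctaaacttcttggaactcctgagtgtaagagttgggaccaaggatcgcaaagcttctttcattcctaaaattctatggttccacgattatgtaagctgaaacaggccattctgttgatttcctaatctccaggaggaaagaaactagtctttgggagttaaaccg
The MIEN1 window held 1 CACGTG and 1 AGGTCA. The CYP1A2 window held 2 overlapping matches to TATAAA, 1 on each strand, and no GCGTG. HIPK3 had 1 TATAAA, and the CLCN2 window had none of the 4 motifs. Of 27305 promoters in the table, 36.3% held GCGTG, 7.43% CACGTG, 13.9% AGGTCA and 12% TATAAA. Of the 132 separating genes 108 had a promoter there, and these shares among them were 45.4%, 12%, 13% and 8.33%, against 45.6%, 8.97%, 10.7% and 8.08% of the 11151 measured genes with a promoter.

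MIEN1 encodes a small membrane-anchored protein that promotes cell migration and is often co-amplified with ERBB2. Its log2 intensity was 12.04, 12.02 and 12.02 on the mock arrays and 12.06, 12.14 and 12.03 with silymarin. It was 10.58, 10.38 and 10.49 with glycyrrhizin and 10.75, 10.53 and 10.93 with ursodeoxycholic acid. The 6 high arrays lay within a narrow band, and a gap of 1.09 parted them from the 6 low ones. The difference between the sides was -1.44 (SE 0.13), or 2.72-fold lower. Glycyrrhizin minus ursodeoxycholic acid was -0.25 (95% interval -0.65 to 0.14, limma adjusted p = 0.774 over genes and 3 pairs of agents). Of 18 measured genes around MIEN1 on chromosome 17, MIEN1 alone separated the sides. The median difference of the list was 0.02, equal to that of all genes (0.02). Since 0.951% of all genes separated, lists of this length, here and below, cannot show that a change is confined to 1 gene.

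CLCN2, a chloride channel opened by hyperpolarisation and cell swelling, showed the widest gap between the sides of the lower genes, 1.15. Its arrays read 11.38, 11.42 and 11.37 in mock cells and 11.43, 11.42 and 11.53 with silymarin. With glycyrrhizin they read 10.16, 10.08 and 9.89, and with ursodeoxycholic acid 10.22, 9.89 and 10.2. Both agents thus gave the same lowest value, 9.89. The sides differed by -1.35 (SE 0.13), which is 2.55-fold, and the agents by -0.05 (95% interval -0.45 to 0.34, limma adjusted p = 0.967). Among 24 measured genes of chloride channels, anion exchange and cell volume only CLCN2 separated, beside 0.951% of all genes. The median of that list was -0.12.

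CYP1A2, the liver cytochrome P450 that oxidises caffeine and aryl amines and a classical AhR target, was 2.33-fold lower with the 2 agents. The mock arrays gave 11.35, 11.39 and 11.2 and the silymarin arrays 11.1, 11.3 and 11.42. The glycyrrhizin arrays gave 10.26, 9.79 and 9.89 and the ursodeoxycholic acid arrays 10.26, 9.9 and 10.34. Mock and silymarin overlapped each other, as did glycyrrhizin and ursodeoxycholic acid, whose difference was -0.19 (95% interval -0.65 to 0.27, limma adjusted p = 0.865). The sides differed by -1.22 (SE 0.15).

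The list of the AhR receptor and its targets had 7 measured genes, with a median of -0.2. Of these 6 were below 0, beside 47.4% of all genes, but the receptor gene AHR was at only -0.027. CYP1A2 alone separated, beside 0.951% of all genes. A list of 7 genes is too short to be read as a change of the pathway. CYP1B1, the extrahepatic member of the CYP1 family, was 9.06, 8.71 and 8.73 in mock cells and 9.73, 9.91 and 9.66 with silymarin. It was 8.05, 8.23 and 8.06 with glycyrrhizin and 8.77, 8.52 and 8.71 with ursodeoxycholic acid. Its 3 glycyrrhizin arrays were the lowest and its 3 silymarin arrays the highest, while mock and ursodeoxycholic acid overlapped by 0.06. Glycyrrhizin minus silymarin was -1.65 (SE 0.19, limma adjusted p = 0.0344), and glycyrrhizin minus ursodeoxycholic acid was -0.55 (95% interval -0.97 to -0.14, limma adjusted p = 0.57).

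HIPK3, a nuclear serine/threonine kinase that binds homeodomain proteins, was among the brightest of the separating genes. Its values were 13.29, 13.65 and 13.91 in mock cells, 14.01, 13.9 and 14.14 with silymarin, 12.42, 12.18 and 11.56 with glycyrrhizin, and 12.6, 12.62 and 12.83 with ursodeoxycholic acid. The glycyrrhizin arrays were all below those of ursodeoxycholic acid, by a mean of 0.63. The interval of that difference, -1.2 to -0.06, excluded 0 before adjustment (limma adjusted p = 0.643). The difference between the sides was -1.45 (SE 0.18), and the second, dimmer HIPK3 probe differed by -0.3. With the mean of both probes the difference was -0.88, and HIPK3 no longer passed the threshold, which left 3 genes.

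**Figure D1:**
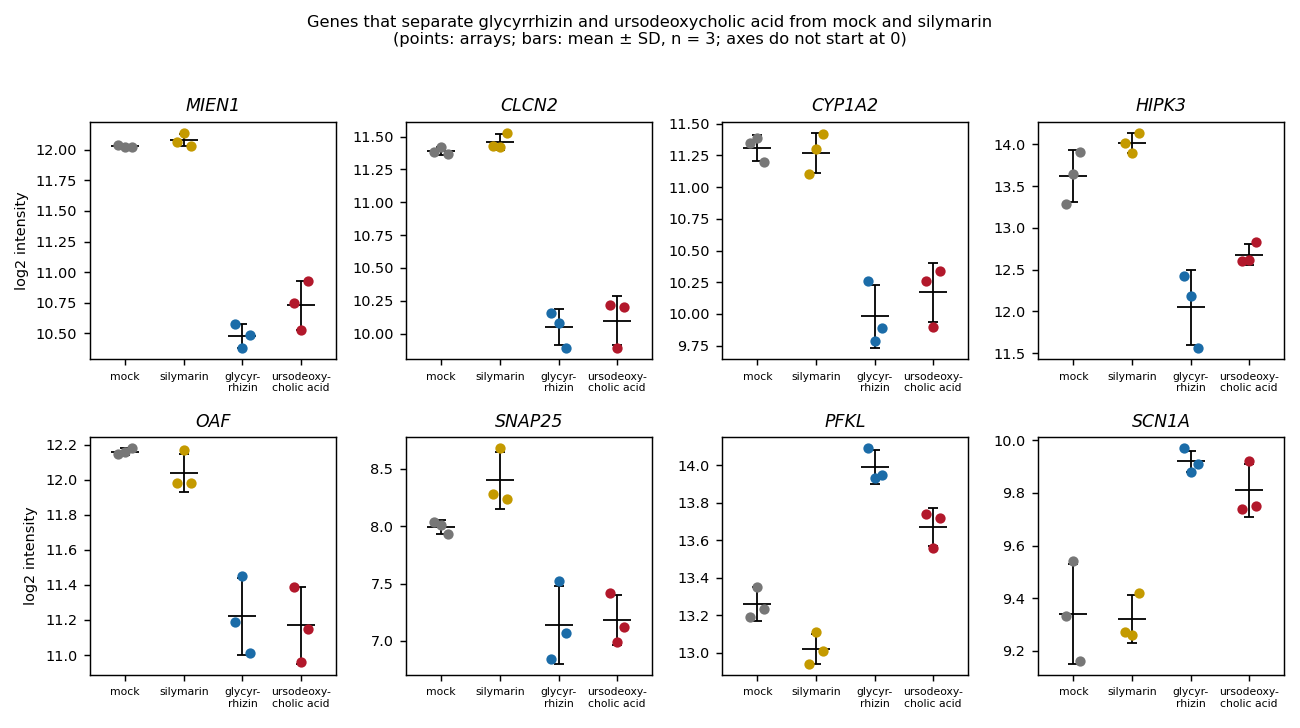
Log2 intensity (vertical axis, not starting at 0) of 8 separating genes on each array, by group on the horizontal axis; points are arrays and bars the mean ± SD of 3 arrays. In MIEN1 and CLCN2 the mock and silymarin arrays lie at least 1.09 and 1.15 above every glycyrrhizin and ursodeoxycholic acid array, whereas for PFKL the order is turned and the gap is 0.21.

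After these 4, the bright lower genes with the smallest p were MTERF3, OAF, SYNE2, SNAP25, YTHDF1 and TATDN1. MTERF3, a repressor of mitochondrial transcription, was -1.15 (SE 0.16) between the sides. Its glycyrrhizin arrays (9.51, 9.4 and 9.15) were all below those of ursodeoxycholic acid (10.1, 10.13 and 9.82), which in turn lay below mock (10.82, 10.25 and 10.83) and silymarin (11.21, 11.11 and 10.81). Glycyrrhizin minus ursodeoxycholic acid was -0.67 (95% interval -1.17 to -0.16). MTERF3 was the only separating gene among 36 measured genes of mitochondrial transcription and translation (list median -0.07), beside 0.951% of all genes.

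SNAP25, a SNARE protein of regulated exocytosis, read 8.04, 8.01 and 7.93 in mock cells and 8.28, 8.68 and 8.24 with silymarin. It read 6.84, 7.52 and 7.07 with glycyrrhizin and 7.42, 6.99 and 7.12 with ursodeoxycholic acid. The agents overlapped, and no array of theirs came within 0.41 of the other side. OAF, YTHDF1, TATDN1 and SYNE2 were lower by 0.91, 1.09, 1.26 and 1.13 on the log2 scale. YTHDF1 reads methylated adenosine in mRNA, and SYNE2 encodes nesprin of the outer nuclear membrane. Of the 26 leading genes SYNE2 was the only one whose interval of silymarin minus mock excluded 0 (-0.79), so that the silymarin arrays (10.31, 10.9 and 10.36) stood between mock (11.23, 11.2 and 11.53) and the 2 agents.

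Among dimmer genes, those below the median log2 intensity of 6.70, GINS4 had a difference of -1.95. GINS4 is a subunit of the replicative helicase. It read 7.6, 7.8 and 8.12 in mock cells and 7.11, 8.14 and 7.1 with silymarin, against 5.47, 6.89 and 5.62 with glycyrrhizin and 5.4, 5.5 and 5.29 with ursodeoxycholic acid. Glycyrrhizin 2 stood nearest to the other side, 0.21 from it. ATP11A, a phospholipid flippase, differed by -1.06 while its second probe differed by 0.3, and with the mean of both probes the value was -0.38. HYLS1, a centriole protein needed for cilia, differed by -0.85. Dim values compress with any offset: with 50 added before the log the GINS4 difference was -1.28 and that of HYLS1 -0.5.

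Genes higher with glycyrrhizin and ursodeoxycholic acid had smaller differences. PFKL, the liver isoform of phosphofructokinase and a control point of glycolysis, was 13.19, 13.35 and 13.23 in mock cells and 12.94, 13.11 and 13.01 with silymarin. It was 14.09, 13.93 and 13.95 with glycyrrhizin and 13.74, 13.56 and 13.72 with ursodeoxycholic acid. The sides differed by 0.69 (SE 0.12, 1.62-fold), and the second PFKL probe by 0.39. The glycyrrhizin arrays were all above those of ursodeoxycholic acid, by a mean of 0.32 (95% interval -0.06 to 0.7, limma adjusted p = 0.716). PFKL was the only separating member of 21 measured genes of glycolysis and gluconeogenesis, beside 0.951% of all genes. Of these 21 genes 15 were above 0, with a median of 0.14 against 0.02 over all genes.

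The other bright higher genes belonged to several families. SCN1A, a voltage-gated sodium channel, read 9.33, 9.54 and 9.16 in mock cells and 9.27, 9.26 and 9.42 with silymarin, and 9.97, 9.88 and 9.91 with glycyrrhizin and 9.74, 9.92 and 9.75 with ursodeoxycholic acid. Mock and silymarin overlapped, as did the 2 agents. CCDC32 (0.65), ZNF394 (0.72), EIPR1 (0.52), SRRM1 (0.61), DEFB126 (0.49), SSTR5 (0.72), INPP4A (0.62) and SERPINB5 (0.57) had differences of similar size. SSTR5 is a somatostatin receptor, SRRM1 a splicing coactivator, DEFB126 a defensin of the epididymis and SERPINB5 the serpin maspin. INPP4A, a phosphoinositide phosphatase, cleared the other side by 0.01, its second probe differed by -0.1, and the mean of both probes gave 0.26.

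Of the 15 higher genes below the median brightness, the 3 with the smallest p were MPHOSPH8, STOM and TMEM234. MPHOSPH8, which reads methylated histone in the silencing complex HUSH, was 5.37, 4.84 and 4.38 in mock cells, 5.14, 5.22 and 4.52 with silymarin, 6.06, 6.57 and 5.88 with glycyrrhizin and 6.06, 5.67 and 6.7 with ursodeoxycholic acid. Its gap of 0.3 was the widest among the 43 higher genes. STOM, the membrane protein stomatin, differed by 0.85 and TMEM234 by 1.25. With 50 added before the log these 3 differences were 0.6, 0.49 and 0.36.

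**Figure D2:**
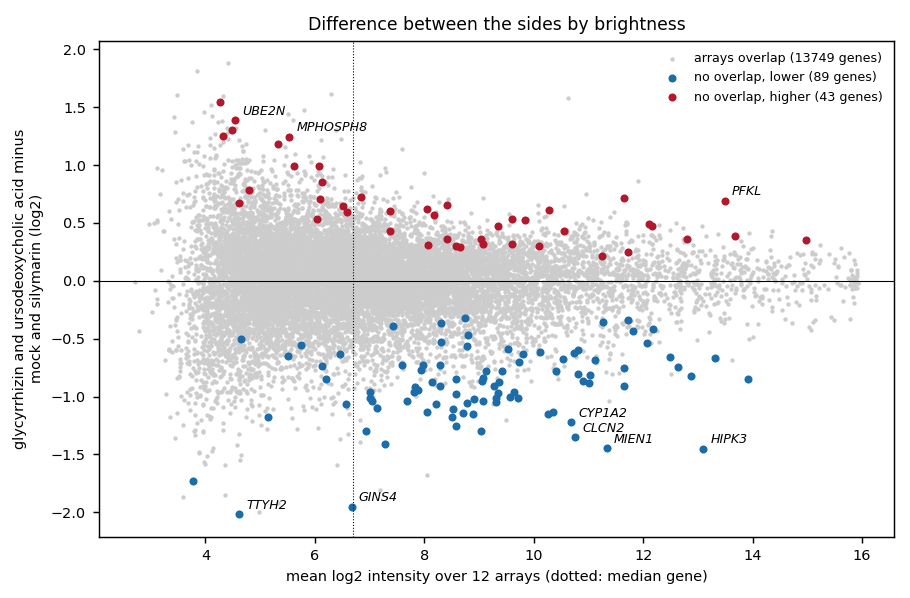
Difference between the sides (glycyrrhizin and ursodeoxycholic acid minus mock and silymarin, log2) against mean log2 intensity over 12 arrays for 13881 genes; blue and red points are the 89 lower and 43 higher separating genes, and the dotted line marks the median gene. Of the lower genes 78 lie at or above that median, and of the higher genes 28.

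The lower genes were larger in size as well as in number. Their median difference was -0.87 (sizes from 0.32 to 2.01), and 32 of 89 reached 1 on the log2 scale. For the higher genes the median was 0.57 (sizes from 0.21 to 1.55), and 6 of 43 reached 1. Over all genes the median difference was 0.02 and 47.4% of genes were below 0. The edge of the rule was thin: DCN cleared it by 0.0019 and TNPO2 by 0.0058, GSC2 and LIN7B tied and stayed outside, and 39 genes lay within 0.05 inside the edge and 83 within 0.05 outside. Leaving out an array can only keep or widen the set, since fewer arrays are compared. It held 283 genes without mock 2, 268 without ursodeoxycholic acid 1, 226 without mock 1 and 203 without glycyrrhizin 2. A second probe existed for 17 separating genes, and 9 of these probes differed in the direction of the first. With the mean of probes 128 genes separated, but only 118 of the 132 were among them. The genes lost were all among these 17, since averaging leaves a gene with 1 probe unchanged. Most of the 17 thus no longer separated the sides.

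The arrays of a side did not carry the lower genes to the same depth. The median deviation of the 89 lower genes from their 12-array means was -0.58, -0.12 and -0.73 on the glycyrrhizin arrays and -0.11, -0.37 and -0.51 on those of ursodeoxycholic acid. It was 0.27, 0.26 and 0.54 in mock cells and 0.45, 0.65 and 0.39 with silymarin. Glycyrrhizin 2 and ursodeoxycholic acid 1 were thus nearest to the other side. The 43 higher genes were more even, from 0.18 to 0.28 on the 6 arrays of the agents and from -0.32 to -0.12 on the others. Ursodeoxycholic acid 1 also had the lowest median correlation with the other arrays across probes (0.908). Silymarin 2, the array with the highest deviation of the lower genes (0.65), came next (0.911). The part of these 2 arrays in these values was not tested.

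**Figure D3:**
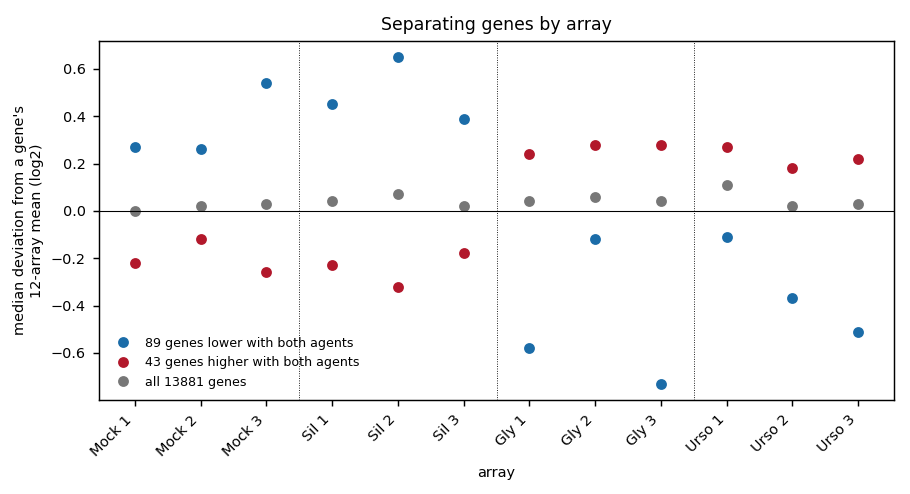
Median deviation from each gene's 12-array mean (log2, vertical axis) on every array (horizontal axis) for the 89 lower genes (blue), the 43 higher genes (red) and all 13881 genes (grey). The blue points run from -0.73 on glycyrrhizin 3 to 0.65 on silymarin 2, and the red points from -0.32 to 0.28.

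The functions of the separating genes were sorted by hand after their values were seen, so the classes have no test. Other measured genes were not sorted, so the size of a class cannot be set against its share of all genes. A large class may only be one with many genes on the array. Of all 132 separating genes 67.4% were lower, and the splits below are to be read beside that share. Transcription and chromatin held 20 genes, 6 higher and 14 lower. FOS, a component of the transcription factor AP-1 and an immediate early gene, was 7.46, 7.24 and 7.79 in mock cells, 8.46, 8.67 and 8.26 with silymarin, 5.28, 7.15 and 6.96 with glycyrrhizin and 7.12, 6.25 and 6.68 with ursodeoxycholic acid. Glycyrrhizin 1 was far below the rest, and the nearest arrays of the sides were 7.15 and 7.24. Other lower genes here were TCF4 (-1.15), MNT (-1.03), a MAX-binding antagonist of MYC, TAF4 (-1.01), a subunit of the general factor TFIID, and HAT1 (-0.96), a histone acetyltransferase, whose second probe differed by 0.13 (mean of both -0.42). The higher ones included IRF1 (0.36), an interferon-induced transcription factor, whose second probe differed by -0.4, so that the mean of both was -0.02.

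Ubiquitin conjugation and proteolysis held 12 genes, 2 higher and 10 lower. CUL1, the scaffold of SCF ubiquitin ligases, was 9.56, 9.94 and 9.94 in mock cells and 9.66, 10.19 and 9.64 with silymarin, against 9.08, 8.68 and 7.97 with glycyrrhizin and 9.14, 8.95 and 9.02 with ursodeoxycholic acid. PSMD14, the deubiquitinase of the proteasome lid, differed by -1.05. Also lower were the conjugating enzyme UBE2H (-1.18), the ligase COP1 (-0.86) and the mitochondrial unfoldase CLPX (-0.77), whose second probe also differed by -0.58. UBE2V2 (-0.87) was lower while UBE2N, the conjugating enzyme it pairs with, was higher (1.39). UBE2N was dim, from 1.97 to 5.66 over the arrays, and with 50 added before the log its difference was 0.4. Of 27 measured proteasome subunits PSMD14 alone separated (list median -0.1), and of 31 cullin ligase genes CUL1 alone (median 0), beside 0.951% of all genes.

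Vesicle traffic and membrane insertion held 19 genes, 5 higher and 14 lower. RAB5B, a GTPase of early endosomes, was the brightest of the lower genes and ran from 14.22 to 14.44 over mock and silymarin and from 13.11 to 13.77 over the 2 agents. TSG101 (-0.87), a subunit of the ESCRT machinery, and RAB21 (-0.65) were lower too. EMC2 (-1.3) and EMC7 (-0.75) are both subunits of the ER membrane protein complex, which inserts proteins into the membrane. Glycyrrhizin 2 and ursodeoxycholic acid 1 were the highest of the agents' arrays for both, at 6.97 and 7 for EMC2 and at 11.74 and 11.61 for EMC7. The higher genes included EIPR1 (0.52), which works with the EARP tethering complex, and ANXA11 (0.78).

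Kinases, phosphatases and receptor signalling held 18 genes, 6 higher and 12 lower. MAP4K4, a kinase upstream of JNK, ran from 9.17 to 9.61 over mock and silymarin and from 7.78 to 8.85 over the agents. LATS1 (-0.72), a core kinase of the Hippo pathway, PRKCD (-0.67), a protein kinase C, and RPS6KB1 (-0.63), the kinase that phosphorylates ribosomal protein S6, were also lower. The second RPS6KB1 probe differed by 0.01, and the mean of both by -0.31. RPS6KB1 was the only separating gene among 19 measured genes of PI3K, AKT and mTOR signalling (median 0.01), beside 0.951% of all genes.

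RNA processing and nuclear transport held 14 genes, 3 higher and 11 lower. The lower ones included UTP4 (-0.92), which acts in ribosome assembly, RPP40 (-0.72), a subunit of RNase P, and the paraspeckle protein NONO (-0.43), whose second probe differed by -0.28. All 4 separating genes of the cell cycle, replication and repair were lower: GINS4, CKS1B (-0.74), PMS1 (-0.73) and ORC1 (-0.39). Of 8 genes of cilia, centrosome, cytoskeleton and nuclear envelope 7 were lower, among them IFT74 (-1.15) and DYNC2LI1 (-0.61), both of intraflagellar transport. Metabolism and mitochondria held 5 higher and 7 lower genes, including OGDH (-0.54) of the citric acid cycle. The remaining classes were ion channels, junctions and metal transport, with 3 higher and 3 lower, and other genes, with 12 higher and 7 lower.

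Lists tied to the agents' known actions were too short for their counts to be told from the 0.951% of all genes that separated. None of 22 measured genes of bile acid synthesis, sensing and transport separated the sides (10 below 0, median 0.08). The 3 with the smallest p were CYP7B1 (-0.8, SE 0.23), a hydroxylase of the alternative bile acid pathway, the phospholipid floppase ABCB4 (-0.93, SE 0.31) and the bile acid ligase SLC27A5 (0.73, SE 0.26). For ABCB4 the arrays of the agents ran from 5.56 to 7.35 and those of the other side from 7.01 to 8.01, so they overlapped. None of 14 genes of corticosteroid activation and response separated (median -0.02), DUSP1 reaching -0.66 (SE 0.24). For DUSP1 silymarin was above mock by 0.91, while against mock glycyrrhizin was -0.35 and ursodeoxycholic acid -0.06. Of 22 genes of HMGB1, toll-like receptor and NF-kB signalling UBE2N alone separated, and 15 were above 0 (median 0.13).

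Cholesterol synthesis had no separating gene among 19, although 15 were below 0 and the median was -0.16. FDFT1, squalene synthase, had a difference of -0.78 (SE 0.2). It ran from 5.79 to 6.67 over the agents, and its silymarin arrays (6.42, 6.71 and 6.11) overlapped these while its mock arrays (7.16, 7.48 and 7.81) did not. Drug metabolism enzymes and their receptors (13 genes, median -0.16), the unfolded protein and integrated stress response (25, median 0), NRF2 and glutathione defence (17, median 0.03), fatty acid and triglyceride metabolism (24, median 0.04), apoptosis regulators (27, median -0.06) and oxidative phosphorylation (28, median 0.09) had none. The 11 cytosolic ribosomal proteins measured had the lowest median, -0.3, with 7 below 0 and none separating. Against mock their median was 0.01 with glycyrrhizin, -0.18 with ursodeoxycholic acid and 0.17 with silymarin. In all, 16 of the 663 measured genes of the 31 pathway lists separated the sides (2.41%), beside 0.951% of all genes and 1.53% of genes at or above the median brightness, where 58.4% of the listed genes lay. Some lists were drawn up around genes known to separate, so this share is a description only.

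**Figure D4:**
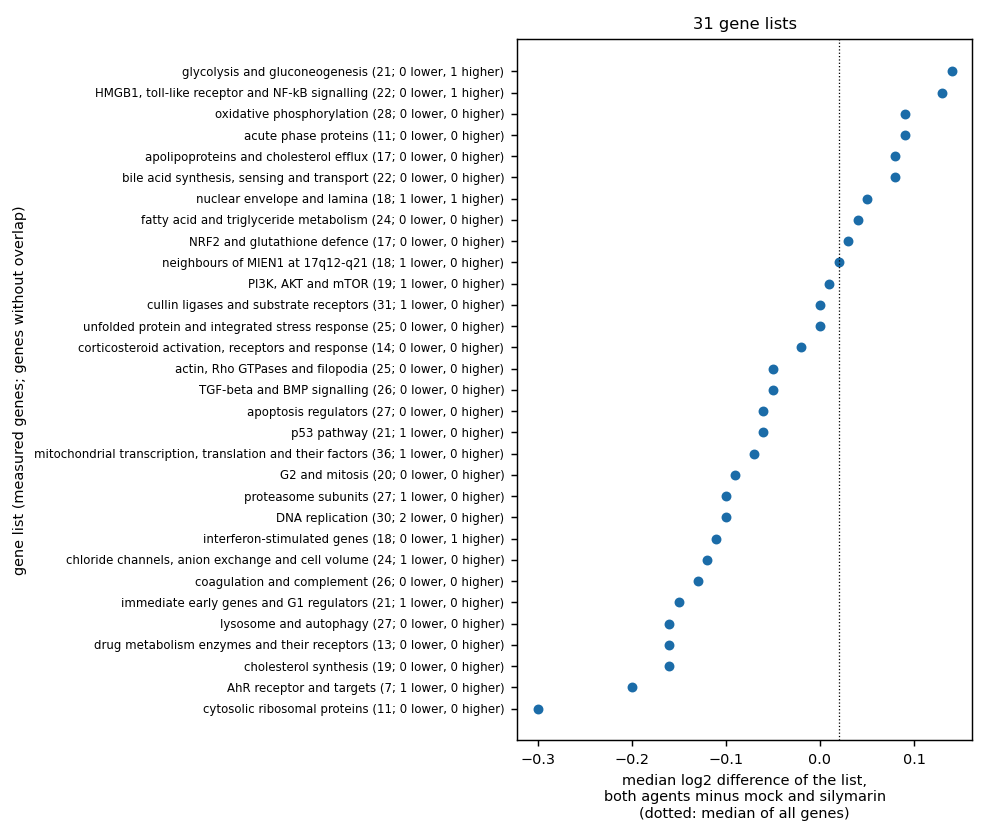
Median log2 difference between the sides (horizontal axis) of 31 gene lists (vertical axis), with the number of measured genes and of separating genes in brackets; the dotted line is the median of all genes, 0.02. List medians run from -0.3 for cytosolic ribosomal proteins to 0.14 for glycolysis and gluconeogenesis, and no list holds more than 2 separating genes. The lists of cell type markers are not shown.

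The 2 agents were compared with each other at the matched dose of 25 µM, as 1 of 3 pairs with p-values adjusted over genes and pairs. In limma glycyrrhizin and ursodeoxycholic acid differed in 0 of 13881 genes (0%); the unadjusted p was below 0.05 for 649 genes, with a lowest adjusted p of 0.0871. Among the separating genes the interval of this difference excluded 0 for HIPK3, MTERF3, LONRF1 (-0.71, 95% interval -1.25 to -0.16) and SBNO1 (-1.36, 95% interval -2.65 to -0.07), all lower with glycyrrhizin, and for OLFM2 (0.55, 95% interval 0.13 to 0.96), higher with it. Their limma adjusted p ran from 0.57 to 0.667. A p that misses the threshold does not show that the agents act alike: for MIEN1 the interval allows glycyrrhizin to be lower by 0.65 or higher by 0.14, and for CYP1A2 lower by 0.65 or higher by 0.27.

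Glycyrrhizin had the lower mean of the 2 agents in 67 of the 89 lower genes, against 49.1% of all genes at or above the median brightness. Silymarin had the higher mean of its side in 64 of the 89, against 52.1%. The order silymarin, mock, ursodeoxycholic acid, glycyrrhizin from high to low was found in 54 of the 89 lower genes. The selection already puts mock and silymarin above both agents in these genes, so this count only combines the 2 before it. Its share over all genes was not counted, and no graded order of the groups is read from it. In the 43 higher genes glycyrrhizin was the lower of the 2 agents in 16 and silymarin above mock in 17. Median glycyrrhizin minus ursodeoxycholic acid was -0.13 over the lower genes and 0.05 over the higher genes, and median silymarin minus mock was 0.12 and -0.02. The genes of a set share their arrays, so these counts are not independent.

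**Figure D5:**
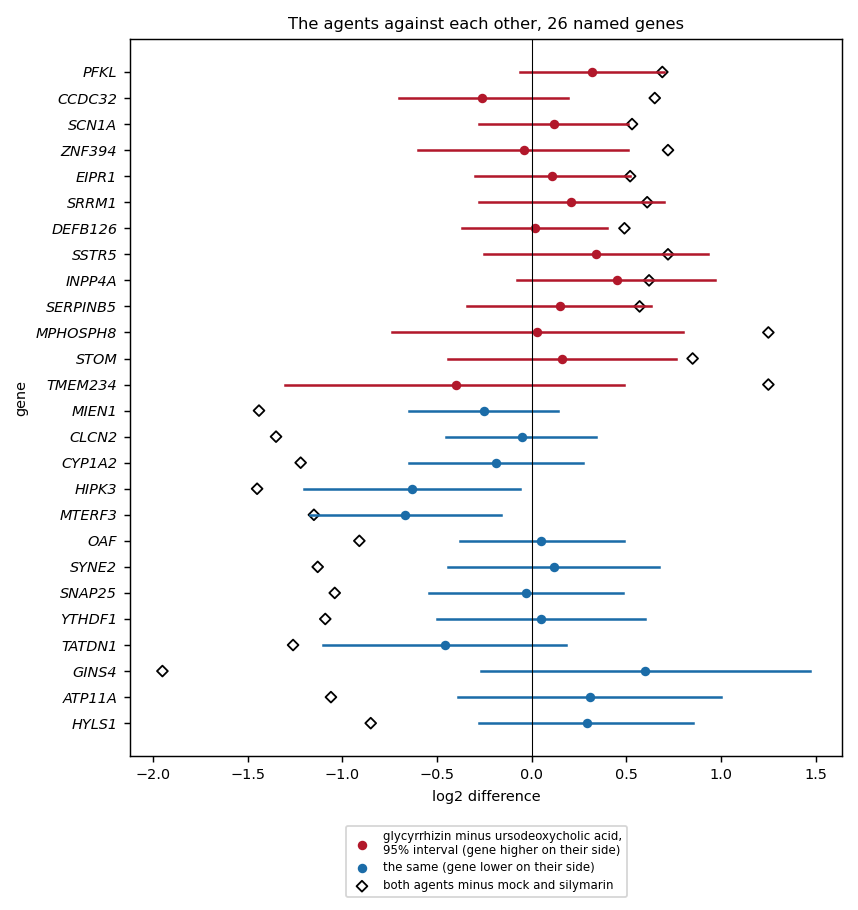
Log2 differences (horizontal axis) of the 26 named genes (vertical axis). Filled points with lines are glycyrrhizin minus ursodeoxycholic acid with 95% intervals (red for genes higher on the side of the agents, blue for lower), and open diamonds are both agents minus mock and silymarin. Only the lines of HIPK3 and MTERF3 miss 0, and the diamonds run from -1.95 to 1.25.

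The other side was compared in the same way. In limma silymarin and mock differed in 0 genes (0%), the unadjusted p being below 0.05 for 679, with a lowest adjusted p of 0.0587. Among the separating genes the interval of silymarin minus mock excluded 0 for SYNE2 and for UBE2N (1.47), both with a limma adjusted p of 0.927. Between the agents across the split, limma found 3 genes for glycyrrhizin minus silymarin (0.0216%) and 1 for ursodeoxycholic acid minus silymarin (0.0072%), and 1292 and 1116 genes had an unadjusted p below 0.05. The 3 genes were CYP1B1, MIEN1 (-1.6, SE 0.18) and DCPS (3.03, SE 0.33), each with an adjusted p of 0.0344. The single gene was DCPS again (2.97, SE 0.33, limma adjusted p = 0.0344). All of these calls were lost, to 0 genes, when any 1 array was left out.

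DCPS, the scavenger enzyme that hydrolyses the mRNA cap, did not separate the sides. It was 8.79, 8.81 and 7.65 with silymarin, 11.71, 11.24 and 10.8 in mock cells, 11.56, 11.19 and 11.58 with glycyrrhizin and 11.43, 11.32 and 11.4 with ursodeoxycholic acid. Only the silymarin arrays stood apart, so its difference lies between silymarin and the other 3 groups. MIEN1 was -1.54 with glycyrrhizin and -1.29 with ursodeoxycholic acid against mock, and -1.6 and -1.34 against silymarin. CLCN2 was -1.34 and -1.29 against mock, and -1.41 and -1.36 against silymarin. CYP1A2 was -1.33 and -1.14 against mock, and -1.29 and -1.1 against silymarin. In these 3 genes both agents were thus over 1 log2 unit below both groups of the other side; the comparisons share arrays.

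The labelled cell type was set against markers. The 19 hepatocyte markers measured had a median log2 intensity of 6.57, near that of all genes (6.7), and 8 of them lay at or above the median gene. ONECUT1 was at 9.9, APOB at 8.89, TTR at 7.77 and AFP at 6.89, and CPS1 at 3.68 was near the bottom. The 17 neuroblast and sympathetic neuron markers had a median of 8.19, with TH at 12.49 and STMN2 at 11.08. Of these 17 markers 13 lay at or above the median gene and the others below it. Gene names are those of the platform annotation and the cell type is that of the labels; neither could be checked further here, and these marker levels do not settle whether the label holds. No detection call accompanied the values, so a dim probe cannot be told from background. Of the marker lists only NEFM (neuroblast, lower by 0.56) and DCN (fibroblast, higher by 0.54) separated the sides. NEFM ran against its list, where 11 of 17 were above 0 (median 0.09). The fibroblast list had 8 of 9 above 0 and the leukocyte list 7 of 10, both with a median of 0.23. Medians of the hepatocyte, cholangiocyte and endothelial, and keratinocyte lists were 0.01, -0.08 and 0.06. The summed level of the neuroblast list ran from 13.35 to 13.68 over mock and silymarin and from 13.48 to 14 over the agents, and its part in the other results was not tested.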

How the data were processed

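RNA of 12 arrays was labelled with Cy5, per the labels. The authors deposited 1 linear intensity per probe and array, from 1 to 65221, already brought to a common distribution (a median spread of 1.22% at a given rank). The submitters' processing notes name limma; its steps and the scanner were not given in the sources used here. Of 27561 probes 15650 had 1 gene symbol, 0 several and 11911 none; 2355 older symbols were updated through RefSeq. The probe with the highest mean stood for each of 13881 genes.

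Log2 intensities were fitted in R 4.3.3 by lmFit and eBayes of limma 3.58.1 (1 mean per group, all probes, two-sided, Benjamini-Hochberg over genes, and over 3 pairs of agents for those pairs). The number of arrays limits precision: the median SE of the difference between the sides was 0.18 in brighter and 0.3 in dimmer genes. The fit was also run on simulated arrays with independent noise, which cannot show how it behaves where arrays share effects. Replicate numbers did not pair the arrays. Named were the 10 brighter and 3 dimmer separating genes per direction with the smallest p, every separating member of a list, and otherwise up to 3 members with the smallest p; genes given as examples of a class, and CYP1B1 and DCPS, were chosen after their values were seen. The members and lists were chosen with earlier results of these data known.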

Additional observations from a re-analysis of the deposited data

Results flagged for a closer look

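Differences between agents across the split that passed the limma threshold were looked at again. CYP1B1 differed by -1.65 and MIEN1 by -1.6 between glycyrrhizin and silymarin. DCPS differed by 3.03 between glycyrrhizin and silymarin and by 2.97 between ursodeoxycholic acid and silymarin. Probes without a gene symbol, which enter no comparison of genes, also separated the sides: 78 of 11911 did (0.655%), 36 higher and 42 lower. Groups of 3 arrays were not tested for outlying arrays.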

How the results depend on the processing

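The difference between the sides kept its direction for the 26 named genes under every alternative run. It was moved by over 1.5 times in 8 of them, by averaging probes or by an offset. These genes were chosen for having no overlap, so leaving out an array or adding an offset could not turn their direction. Those runs are therefore no check of it. Among named genes with a second probe, that probe kept the direction for HIPK3 (-0.3) and PFKL (0.39) and turned it for ATP11A (0.3) and INPP4A (-0.1). The count of 4 genes past the limma threshold on the split became 8 with cyclic loess, 56 without the dimmer 50% of probes, 7 with the spread prior taken from genes only (chosen after seeing the data), 128 with a variance trend (19 higher, 109 lower), 11 with array weights, 8 with 2 side means, 25 with an offset of 16 and 95 with an offset of 50. All 4 genes were among the calls in each of these. With the mean of probes it was 3, HIPK3 being lost. Leaving out 1 array gave 2 to 13 genes, with 13 without glycyrrhizin 2, 4 without glycyrrhizin 1, 3 without mock 1 and 2 without any other single array. The separating genes numbered 38 with a limit of 1 on the log2 scale. They numbered 157 with cyclic loess (126 of the 132 kept) and 128 with the mean of probes (118 kept). Averaging could remove only the 17 genes with a second probe, and most of these were lost. With 1 array left out they numbered 154 to 283, a set that cannot shrink when fewer arrays are compared. For glycyrrhizin minus ursodeoxycholic acid 1 gene passed with cyclic loess, 1 without dim probes, 1 with the variance trend, 1 with array weights and 2 with an offset of 50. For glycyrrhizin minus silymarin the 3 genes became 7 with cyclic loess, 16 without dim probes, 6 with the prior from genes, 89 with the trend, 7 with weights, 0 with the compared groups only, 7 and 45 with offsets of 16 and 50, and 0 without any 1 array. For ursodeoxycholic acid minus silymarin the 1 gene became 5, 4, 4, 25, 6, 0, 3, 13 and 0 in the same order. For silymarin minus mock the counts were 2 without dim probes, 4 with the trend, 1 with weights, and 1 and 2 with the offsets. The cause of these changes was not tested.

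With the replicate number as a block, 2 genes passed on the split and 0 in glycyrrhizin minus silymarin and in ursodeoxycholic acid minus silymarin. The numbers did not pair the arrays: over 18 same-numbered pairs the correlation of deviations ran from -0.189 to 0.153, 4 were over 0.1, and 4 of 12 arrays were closest to their own number. Differently numbered arrays of different groups ran wider, with a median of -0.005. Their range was from -0.231 (silymarin 3 and ursodeoxycholic acid 1) to 0.272 (mock 1 and glycyrrhizin 3). Whether such arrays share an unlabelled effect was not tested.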

Other observations

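Of the 89 lower separating genes 10 lay on chromosome 8, and of the 43 higher genes 0 did, where 488 of the 13881 measured genes lie (3.52%). This was noticed after the values were seen. The median difference between the sides over the 232 brighter genes of that chromosome was 0.01. The count was not tested.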
